A study of Mus musculus with 10 samples.

Results

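The response of Ikaros-Zn4-/- CD8+ T cells to 30 min of stimulation was described across all genes measured, from 2 libraries of stimulated cells set against 2 libraries of unstimulated cells of the same genotype. These are 4 of the 10 libraries of the series. Ikaros-Zn4-/- mice are homozygous for a deletion that removes zinc finger 4 of Ikaros, and the 30 min and 0 min groups both carry it. All cells came from spleens of female C57Bl/6 mice aged 6 weeks and were sorted as naive by surface markers, among them CD8 (positive) and CD44 (low or negative). The 30 min cells were held on plates carrying antibodies to CD3 and CD28, and the 0 min cells went into lysis straight after the sort. WT cells of the same strain, age and sex, with 2 libraries at 30 min and 2 at 0 min, are used here for comparison. The labels do not tie the 2 libraries of a group to separate mice, so a p-value here covers no more than the spread between the libraries at hand. They name no cell type to which the deletion is restricted.

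Ikaros, encoded by Ikzf1, is a zinc finger DNA-binding protein of lymphocytes that can recruit the NuRD chromatin remodelling complex and other repressors, and its N-terminal zinc fingers select the DNA sites it binds. Ligation of the T cell receptor (TCR) together with CD28 starts the MAP kinase, calcium and NF-kB pathways within minutes. The first transcripts to accumulate are immediate early genes, which need no new protein synthesis and encode mostly short-lived transcription factors and feedback inhibitors of the same pathways.

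The deposited values are RPKM, reads scaled to the length of the gene model in kilobases and to the depth of the library. They were tested as log2(RPKM + 1) with limma over the 12203 genes that averaged at least 0.5 RPKM over the 10 libraries, and a gene was called at a Benjamini-Hochberg adjusted p below 0.05. Depth worked out from the spacing of low RPKM values was 10.2 and 5.77 M reads in the Ikaros-Zn4-/- 30 min libraries and 13.3 and 4.50 M reads in the 0 min libraries. On a gene model of 1 kb, 1 read was worth 0.0977 and 0.173 RPKM at 30 min and 0.0750 and 0.222 RPKM at 0 min. Over genes, which do not count as independent replicates, the 2 libraries correlated with a Pearson's r of 0.957 at 30 min and 0.962 at 0 min, and the SD of their log2 difference was 0.52 and 0.48. In WT cells that SD was 0.43 at both times, so the mutant libraries of a group lay somewhat further apart.

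Markers of CD8+ T cells were high and Cd44 was low, while several other genes of memory or effector T cells were higher than in WT cells before stimulation. Ikzf1 had 240 and 263 RPKM in the Ikaros-Zn4-/- 30 min libraries, against 206 and 226 RPKM at 0 min, and was not called (adjusted p = 0.383). With 1 value for the whole gene, the deletion itself is not checked. Cd8a had 292 and 362 RPKM at 30 min, against 511 and 456 RPKM at 0 min (adjusted p = 0.138). Cd44, the marker of antigen-experienced cells, was near 1 RPKM, with 0.980 and 0.972 RPKM at 30 min, against 0.731 and 1.05 RPKM at 0 min. The 10 CD8+ T cell markers summed to 4531 and 5796 RPKM at 30 min, against 6365 and 5948 RPKM at 0 min, and 0 of 10 were called by limma (2 at an unadjusted p below 0.05, and 2 called by limma-voom). The 7 naive T cell markers summed to 1971 and 2093 RPKM at 30 min, against 1750 and 1808 RPKM at 0 min, and 1 of 7, Ccr7, rose. At 30 min 1.68% of all genes were called higher and 1.06% lower, and 22.5% had an unadjusted limma p below 0.05. Of 12 memory or effector T cell markers 10 were tested. They summed to 355 and 412 RPKM at 30 min, against 376 and 415 RPKM at 0 min. Of these 10, 1 fell, Cxcr3, and 0 of 8 fits without 1 library called it. At 0 min 5 of these 10 were called higher in Ikaros-Zn4-/- than in WT cells (1.92% of all genes were) and 0 lower, and the 10 summed to 376 and 415 RPKM in Ikaros-Zn4-/- libraries, against 204 and 201 RPKM in WT libraries. Cxcr3, a chemokine receptor of effector and memory cells, had 46.4 and 53.7 RPKM in Ikaros-Zn4-/- cells at 0 min, against 4.30 and 3.18 RPKM in WT cells (log2 difference 3.43, adjusted p = 0.000468). The other 4 were Il2rb, Eomes, Tbx21 and Gzma. Of 11 B cell markers 4 were tested and 0 called (3 at an unadjusted p below 0.05, 1 called by limma-voom), with a sum of 193 and 258 RPKM at 30 min, against 325 and 284 RPKM at 0 min. Nearly all of it came from Ighm, while Cd79a lay at 1.01 and 0.595 RPKM at 30 min, against 0.257 and 0.152 RPKM at 0 min. Of 12 myeloid markers 3 were tested and 0 called (0 at an unadjusted p below 0.05 or by limma-voom), with sums of 34.2 and 19.7 RPKM at 30 min, against 20.3 and 27.5 RPKM at 0 min. Of 8 natural killer cell markers 1 was tested, Gzma, at 2.34 and 9.28 RPKM at 30 min, against 5.30 and 5.56 RPKM at 0 min. Of 6 CD4+ and regulatory T cell markers 1 was tested, Ikzf4, at 2.10 and 2.28 RPKM at 30 min, against 2.95 and 4.19 RPKM at 0 min. The other markers of these lists, among them Cd4, Foxp3 and Ncr1, and the whole erythroid and platelet list, were not analysed here. The part of these cells in the results was not tested.

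Within 30 min, 205 genes rose and 129 fell in Ikaros-Zn4-/- cells. That is 334 of the 12203 genes (2.74%), with 1.68% called higher and 1.06% called lower. An unadjusted limma p below 0.05 was found for 2749 genes (22.5%). All counts of list and marker members for 30 min against 0 min are to be read beside these shares. Rises were larger than falls: 159 of the rises and 63 of the falls reached a 2-fold change of RPKM + 1. The median change of all genes was -0.12. Every log2 change below is given relative to it, on the log2(RPKM + 1) scale, which understates changes of genes with low RPKM. The tests themselves were made on log2(RPKM + 1) without subtracting that median. Because the RNA is from bulk samples, less RNA of a gene per cell and fewer cells that hold it cannot be told apart. A scaling by the median ratio of genes moved the split to 252 higher and 80 lower, and gene models of at least 300 bases gave 290 higher and 275 lower. The balance turned to 428 higher and 686 lower of 12140 genes with limma-voom on recovered reads. Limma-voom counts of list and marker members for 30 min against 0 min are to be read beside these. With a replicate block the balance turned to 374 higher and 587 lower, although the labels do not pair the libraries. With the spread taken from the 4 Ikaros-Zn4-/- libraries alone, 0 genes were called by limma in either direction and 2129 had an unadjusted p below 0.05.

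The calls also depended on single libraries. Leaving out 1 of the 8 libraries at 0 and 30 min gave 31 higher and 8 lower without the first Ikaros-Zn4-/- 30 min library and 74 and 5 without the second. The counts were 50 and 2 without the first Ikaros-Zn4-/- 0 min library and 39 and 3 without the second. They were 79 and 8 without the first WT 30 min library, 72 and 6 without the second, 139 and 25 without the first WT 0 min library and 140 and 25 without the second. Of the 205 rises 20 were called in all 8 of these fits and 61 in none, and of the 129 falls 0 were called in all 8 and 103 in none. The number of these 8 fits that called a gene is given below for the main genes.

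**Figure D1:**
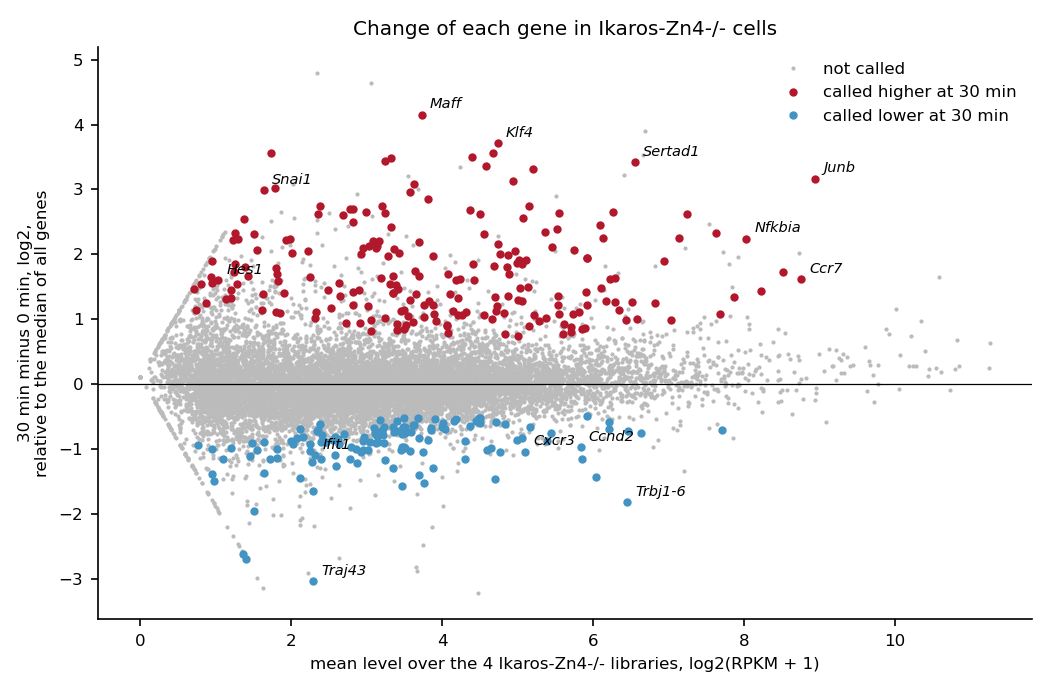
Log2 change of each tested gene in Ikaros-Zn4-/- cells, 30 min minus 0 min and relative to the median of all genes (vertical axis), against its mean log2(RPKM + 1) over the 4 Ikaros-Zn4-/- libraries (horizontal axis); red points are the 205 genes called higher, blue points the 129 called lower and grey points genes that were not called. The rises reach 4.15 (Maff) and run across a wide range of levels, while most falls lie between 0 and -2.

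The largest rise was in Maff, which encodes a small Maf protein, a basic leucine zipper factor without an activation domain of its own (chromosome 15, 79346621 to 79359076, on GRCm38 by GENCODE M21, as are all gene positions given). Its level was 67.8 and 40.9 RPKM in the Ikaros-Zn4-/- 30 min libraries, against 3.96 and 1.15 RPKM at 0 min. The log2 change was 4.15 (SE 0.58, adjusted p = 0.0230, called in 2 of 8 fits). Klf4, a zinc finger factor that restrains T cell proliferation (chromosome 4, 55527143 to 55532466), reached 90.9 and 91.9 RPKM at 30 min, against 8.58 and 5.10 RPKM at 0 min, a change of 3.71 (SE 0.46, adjusted p = 0.0165, 2 of 8 fits). Dusp5, a nuclear phosphatase of the MAP kinase ERK (chromosome 19, 53529109 to 53542431), had 90.4 and 75.5 RPKM at 30 min, against 10.4 and 4.22 RPKM at 0 min, a change of 3.56 (SE 0.37, adjusted p = 0.0122, 6 of 8 fits). Errfi1, a feedback inhibitor of receptors of the epidermal growth factor receptor family (chromosome 4, 150853919 to 150868892), had 28.2 and 29.4 RPKM at 30 min, against 2.51 and 1.55 RPKM at 0 min, a change of 3.43 (SE 0.21, adjusted p = 0.00196, 8 of 8 fits). The 2 libraries lay close together at 30 min for Klf4 and Errfi1 and further apart for Maff.

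Sertad1, a transcriptional coregulator of the E2F pathway (chromosome 7, 27486910 to 27490316), combined a high level with close replicates. It had 267 and 321 RPKM in the Ikaros-Zn4-/- 30 min libraries, against 28.0 and 29.6 RPKM at 0 min, a change of 3.42 (SE 0.15, adjusted p = 0.000530, 8 of 8 fits). Gadd45b, a stress-inducible activator of p38 MAP kinase signalling (chromosome 10, 80930073 to 80932204), had 97.8 and 127 RPKM at 30 min, against 13.2 and 9.47 RPKM at 0 min (3.32, SE 0.22, adjusted p = 0.00250, 8 of 8 fits). Junb, a subunit of the transcription factor AP-1, was the most abundant of the large rises, with 1559 and 1272 RPKM at 30 min, against 107 and 268 RPKM at 0 min (3.17, SE 0.48, adjusted p = 0.0280, 3 of 8 fits). Its 2 libraries differed less, as a ratio, at 30 min than at 0 min.

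Fam83d, which encodes a protein of the mitotic spindle, and Snai1, which encodes a zinc finger repressor, were below 1 RPKM before stimulation. Fam83d had 8.71 and 8.21 RPKM at 30 min, against 0.432 and 0.111 RPKM at 0 min (3.02, SE 0.23, adjusted p = 0.00346, 8 of 8 fits). Snai1 had 6.75 and 8.13 RPKM at 30 min, against 0.324 RPKM and a listed 0 at 0 min (2.99, SE 0.21, adjusted p = 0.00284, 8 of 8 fits). A gene named RP23-16N14.5 in the deposited table, a processed pseudogene on chromosome 1 (55066264 to 55067069), had 30.8 and 31.6 RPKM at 30 min, against 1.77 and 2.48 RPKM at 0 min (3.49, adjusted p = 0.000530, 8 of 8 fits). Reads of a pseudogene can come from its parent gene, so this value is uncertain. The 20 genes that were called in all 8 fits also include Wsb1 and Hexim1, which encode a substrate adaptor of a ubiquitin ligase and an inhibitor of the elongation kinase P-TEFb. Wsb1 had 62.8 and 57.9 RPKM at 30 min, against 15.4 and 14.5 RPKM at 0 min. Hexim1 had 157 and 148 RPKM at 30 min, against 29.1 and 29.9 RPKM at 0 min. The other members of the 20 are Klf10, Csrnp2, Nfkbia, Tnf, Rnd1, Zc3h12a, Phf13, Rrad, Arl4d, Gm11579, Map1lc3a and Fzd5.

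**Figure D2:**
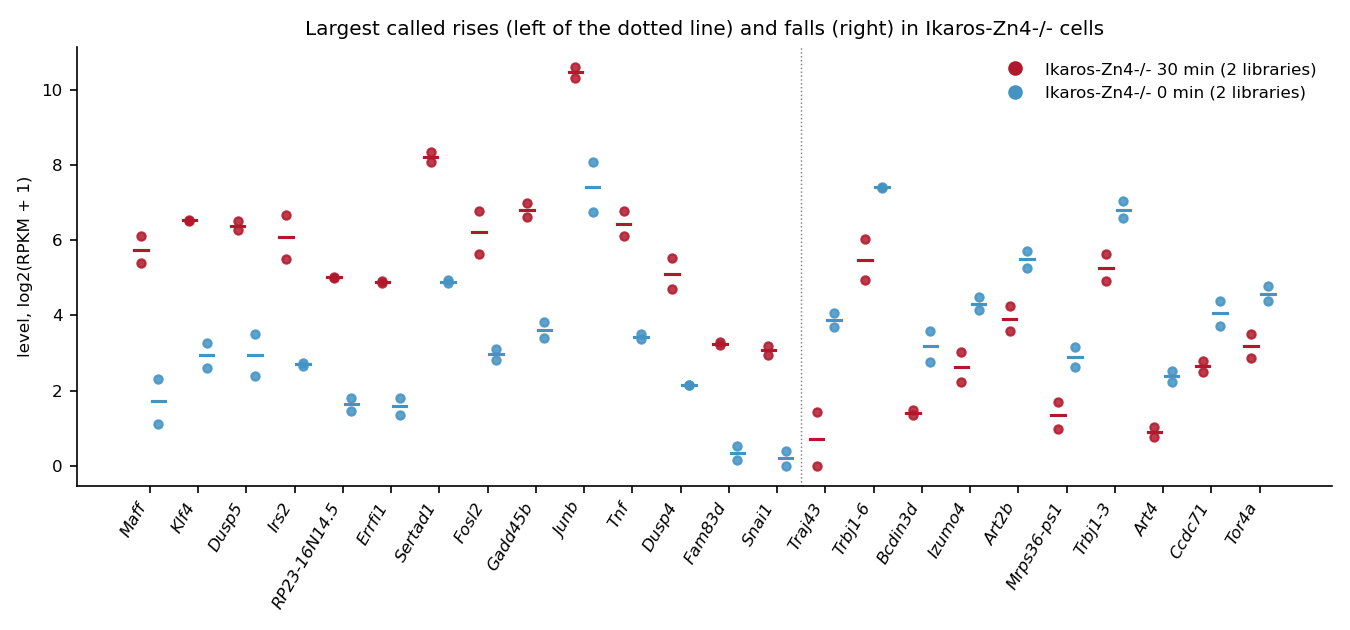
Levels as log2(RPKM + 1) of the 14 largest called rises (left of the dotted line) and 10 largest called falls (right of it) in Ikaros-Zn4-/- cells; each point is 1 library, red for 30 min and blue for 0 min, and each bar is the mean of the 2 libraries. Maff, at 67.8 and 40.9 RPKM against 3.96 and 1.15 RPKM, stands first. The genes were chosen by this same change, so the distance between the 30 and 0 min points is no separate result.

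Promoter windows (250 bases before to 50 after the start of a transcript, RefSeq, GRCm38.p6) were found for 12 of the 14 genes with the largest rises. They were searched on both strands for the cyclic AMP response element TGACGTCA and the AP-1 element TGANTCA, which bind factors of the CREB and AP-1 families, and 3 of the 12 held 1 of them. These 3 windows are shown with the match in capitals. Each runs from 40 bases before the match to 40 after it, or to the transcript start where that comes sooner, as in Maff. They were chosen because the genes are among the largest rises and the windows hold a match. Whether the matched elements have a part in the rises was not tested. Dusp5 was added after the matches were seen, because its window holds a pair of adjacent CArG boxes, the element bound by serum response factor. All 4 lie on the plus strand, and positions count back from the transcript start, with -1 as the last base before it. The windows are chr15:79347451-79347519 for Maff (match at -29 to -22), chr4:150854979-150855066 for Errfi1 (-51 to -44), chr2:158768006-158768092 for Fam83d (-53 to -47) and chr19:53529023-53529122 for Dusp5 (-82 to -63).
Maff: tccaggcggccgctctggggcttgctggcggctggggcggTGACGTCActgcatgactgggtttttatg
Errfi1: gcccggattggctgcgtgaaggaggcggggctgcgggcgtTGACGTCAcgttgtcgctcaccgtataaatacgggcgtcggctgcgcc
Fam83d: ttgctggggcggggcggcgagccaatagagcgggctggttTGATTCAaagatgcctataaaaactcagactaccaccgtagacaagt
Dusp5: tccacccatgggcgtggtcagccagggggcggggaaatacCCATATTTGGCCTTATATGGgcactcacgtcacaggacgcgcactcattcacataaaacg
In Dusp5 a match to the NF-kB motif (GGGNN followed by TTTCC), read on the other strand, overlaps the first CArG box. The promoter window of Maff also holds a match to the EGR motif GCGTGGGCG, which starts at -88 and lies before the stretch shown.

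Over all promoters the motif counts were small. The cyclic AMP response element was found for 10 of the 156 genes called higher that had a promoter (6.41%, of 203 symbols), for 0 of 90 called lower (of 129) and for 3.90% of the 7690 tested genes with one. AP-1 elements were found for 8.33% of genes called higher, 7.78% of genes called lower and 5.67% of all tested genes. These shares count a gene with a match in any of its promoters. Counted per promoter instead, with genes that were not tested included, the share was 7.81% of 32851 promoters. EGR motifs were found for 3.21%, 0% and 1.495%, NF-kB motifs for 3.85%, 3.33% and 1.89%, and CArG boxes for 3.85%, 1.11% and 1.47%, in the same order of sets. The core TGGGAA that Ikaros binds, searched on both strands, was found for 19.2% of genes called higher, 28.9% of genes called lower and 26.0% of all tested genes. A match describes the letters of the window and does not show a bound site. In genomic span, the 182 protein coding genes called higher had a median of 10.4 kb, the 107 called lower 13.6 kb and the 9681 tested 22.8 kb.

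The immediate early genes were the list with the most members called. Among 20 immediate early genes other than AP-1, EGR and NR4A factors, 14 rose and 0 fell (4 to 12 higher when 1 library was left out), with a median log2 change of 2.21 where that of all genes is 0 by construction. Klf10, a zinc finger repressor induced by TGF-beta, had 21.6 and 20.8 RPKM in the Ikaros-Zn4-/- 30 min libraries, against 3.74 and 3.28 RPKM at 0 min (2.41, adjusted p = 0.00101, 8 of 8 fits). Irs2, an adaptor of the insulin receptor, had 101 and 43.9 RPKM at 30 min, against 5.68 and 5.30 RPKM at 0 min (3.50, adjusted p = 0.0212, 3 of 8 fits). The other called members are Klf4, Sertad1, Gadd45a, Gadd45b, Plk2, Plk3, Csrnp1, Ier2, Ier3, Ier5, Tgif1 and Sertad3. Mcl1, a survival factor of the BCL2 family, had 106 and 116 RPKM at 30 min, against 110 and 112 RPKM at 0 min (0.12, adjusted p = 0.987), and Srf changed by 0.25 (adjusted p = 0.577).

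Of 12 AP-1 and small Maf subunits 4 rose, Maff, Fosl2, Junb and Mafk, and 0 fell (0 to 6 higher when 1 library was left out), with a median change of 2.03. Fosl2 had 108 and 48.9 RPKM at 30 min, against 7.62 and 6.03 RPKM at 0 min (3.36, SE 0.37, adjusted p = 0.0137, 6 of 8 fits). Fos was at 591 and 1134 RPKM at 30 min, against 270 and 175 RPKM at 0 min, a change of 2.02 with an adjusted p of 0.0855. Jun was at 376 and 447 RPKM, against 98.4 and 116 RPKM (2.04, adjusted p = 0.0680). Neither Fos nor Jun was called. Among 8 EGR and NR4A factors Egr1, Egr2 and Nr4a3 rose and 0 fell, with a median change of 2.18 (0 to 3 higher when 1 library was left out). Egr1 had 94.7 and 105 RPKM at 30 min, against 19.2 and 20.6 RPKM at 0 min (2.39, adjusted p = 0.0216), whereas Nr4a1, the nuclear receptor used as a reporter of TCR signal strength, had 406 and 362 RPKM, against 38.9 and 18.4 RPKM (3.90, SE 0.89, adjusted p = 0.0729). Egr3 was at 7.04 and 5.26 RPKM, against 3.39 and 5.96 RPKM at 0 min, and the groups overlapped. The calls in these 2 lists are to be read beside the 1.68% of all genes called higher. An unadjusted limma p below 0.05 was found for 10 of 12 AP-1 and small Maf subunits and 5 of 8 EGR and NR4A factors. Of all genes 22.5% had such a p. Limma-voom called 8 and 4 members, in the same order.

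Some feedback inhibitors of the MAP kinase and NF-kB pathways rose. Of 15 MAP kinase feedback regulators 5 rose and 0 fell (1 to 5 when 1 library was left out; median 1.15): the phosphatases Dusp4, Dusp5, Dusp6 and Dusp10 and Errfi1. Dusp6, a cytoplasmic ERK phosphatase, had 51.8 and 59.7 RPKM at 30 min, against 22.3 and 19.5 RPKM at 0 min (1.49, adjusted p = 0.0137, 4 of 8 fits). Dusp1 was at 234 and 370 RPKM, against 112 and 48.3 RPKM (2.10, adjusted p = 0.0769). Of 20 NF-kB subunits and regulators 4 rose and 0 fell (1 to 2 when 1 library was left out; median 0.31), and all 4 encode inhibitory or IkB-type proteins. Nfkbia, which encodes the inhibitor IkB-alpha, had 510 and 582 RPKM at 30 min, against 121 and 128 RPKM at 0 min (2.24, SE 0.14, adjusted p = 0.00223, 8 of 8 fits). Tnfaip3, the ubiquitin-editing enzyme A20, had 473 and 380 RPKM, against 142 and 58.2 RPKM (2.32, adjusted p = 0.0439, 1 of 8 fits). Nfkbid and Nfkbiz rose by 2.11 (adjusted p = 0.0280, 2 of 8 fits) and 1.85 (adjusted p = 0.0443, 0 of 8 fits). The DNA-binding subunit Rela changed by 0.30 and Nfkb1 by 0.24, neither called (adjusted p = 0.491 and 0.716). In the calcium, calcineurin and NFAT list 0 of 17 were called by limma (3 at an unadjusted p below 0.05, 1 called by limma-voom; median 0.06), with Stim1, the calcium sensor of the endoplasmic reticulum, at 57.9 and 54.1 RPKM at 30 min, against 56.8 and 62.1 RPKM at 0 min.

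**Figure D3:**
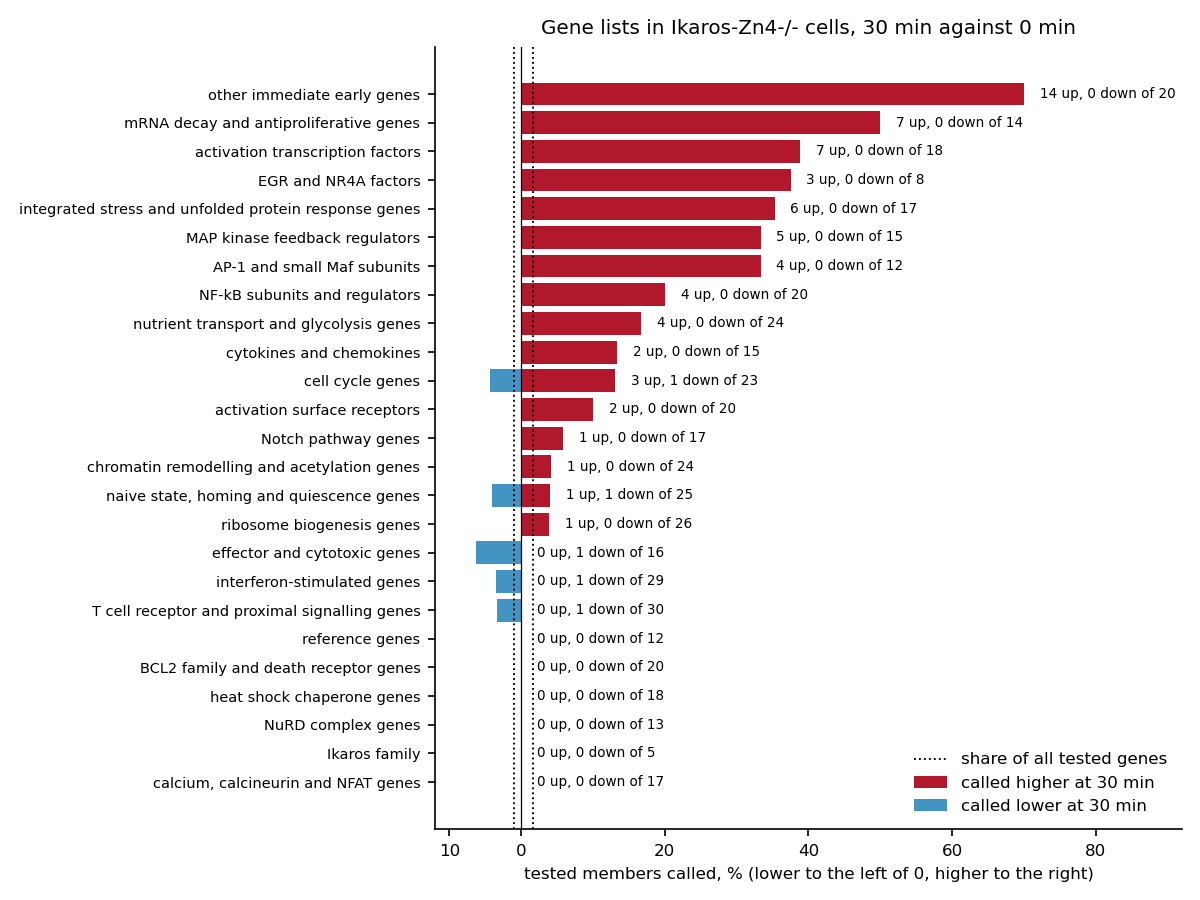
Share of the tested members of each gene list called higher (red, to the right of 0) or lower (blue, to the left of 0) in Ikaros-Zn4-/- cells at 30 min against 0 min, with the counts beside each bar; dotted lines mark the shares over all tested genes, 1.68% higher and 1.06% lower. The list of other immediate early genes leads with 14 of 20 higher, and 6 lists have no member called.

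Among 18 activation transcription factors and kinases 7 rose and 0 fell (0 to 5 when 1 library was left out; median 0.97). Nfil3, a basic leucine zipper repressor, had 22.6 and 14.5 RPKM at 30 min, against 3.26 and 1.53 RPKM at 0 min (2.66, adjusted p = 0.0137, 6 of 8 fits). Id3, an inhibitor of E proteins that marks naive and memory T cells, had 56.9 and 49.4 RPKM at 30 min, against 8.92 and 16.4 RPKM at 0 min (2.16, adjusted p = 0.0280, 0 of 8 fits). Bhlhe40, Pim1, Pim3, Bcl6 and Prdm1 make up the rest, and Bcl6 and Prdm1, which repress each other in other lymphocyte settings, changed by 1.22 and 1.15. Myc, at 88.1 and 111 RPKM against 68.3 and 76.9 RPKM at 0 min, was not called (0.56, adjusted p = 0.270).

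Genes that limit mRNA lifetime and proliferation were also called. In this list of 14, 7 rose and 0 fell (1 to 4 when 1 library was left out; median 0.79). Tob1, an antiproliferative protein that binds the deadenylase complex, had 82.2 and 93.5 RPKM at 30 min, against 16.1 and 11 RPKM at 0 min (2.75, adjusted p = 0.00837, 5 of 8 fits). Zc3h12a, the ribonuclease Regnase-1 that degrades cytokine mRNAs, had 91.0 and 65.8 RPKM, against 12.7 and 14.2 RPKM (2.56, SE 0.18, adjusted p = 0.00289, 8 of 8 fits). The 3 members of the family that binds AU-rich elements, Zfp36, Zfp36l1 and Zfp36l2, rose by 1.73, 2.07 and 1.08 on the log2 scale, and Btg1 and Tob2 make up the 7. Rc3h1 and Rc3h2, the Roquin proteins, changed by 0.53 and -0.17 and were not called.

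Of 15 cytokines and chemokines tested 2 rose, where 1.68% of all genes did, and 0 fell (median 0.18; 1 to 2 higher when 1 library was left out). Tnf, encoding tumour necrosis factor (chromosome 17, 35199381 to 35202007), had 68.1 and 108 RPKM in the Ikaros-Zn4-/- 30 min libraries, against 9.29 and 10.3 RPKM at 0 min (3.12, SE 0.21, adjusted p = 0.00250, 8 of 8 fits). Tnfsf11, encoding the ligand RANKL, had 21.3 and 8.53 RPKM at 30 min, against 3.12 and 2.78 RPKM at 0 min (2.00, adjusted p = 0.0487, 1 of 8 fits). Ifng, encoding interferon-gamma, was at 9.95 and 14.8 RPKM, against 4.29 and 2.21 RPKM (1.79, adjusted p = 0.0979). Of 20 activation surface receptors 2 rose, Cd28 and the transferrin receptor Tfrc, and 0 fell (0 to 2 when 1 library was left out; median 0.13). Cd28 had 80.3 and 49.7 RPKM at 30 min, against 18 and 17 RPKM at 0 min (1.91, adjusted p = 0.0158). Cd69, the early activation antigen, had 363 and 570 RPKM, against 173 and 92 RPKM (1.96, adjusted p = 0.0591).

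Stress and nutrient genes rose in part. Of 17 genes of the integrated stress and unfolded protein responses 6 rose and 0 fell (0 to 4 when 1 library was left out; median 0.85). The chaperone gene Hspa5 had 458 and 483 RPKM at 30 min, against 198 and 177 RPKM at 0 min (1.44, adjusted p = 0.0138). Its co-chaperone Dnajb9 had 49.2 and 53.9 RPKM, against 17.3 and 9.88 RPKM (2.01, adjusted p = 0.0216). Herpud1, Atf4, Ddit3 and Sesn2 were the others, while Xbp1 changed by 0.20 (adjusted p = 0.852) and 0 of 18 heat shock chaperone genes were called by limma (3 at an unadjusted p below 0.05, 0 by limma-voom; median 0.24). Of 24 nutrient transport and glycolysis genes 4 rose, all of them transporters, and 0 fell (0 to 3 when 1 library was left out; median 0.27). Slc38a2, a transporter of neutral amino acids, had 327 and 265 RPKM at 30 min, against 84.4 and 51.6 RPKM at 0 min (2.26, adjusted p = 0.0142). The glucose transporter Slc2a1 had 62.4 and 41.6 RPKM, against 15.4 and 14.9 RPKM (1.80, adjusted p = 0.0152). Slc16a1, a lactate transporter, and Slc3a2, the heavy chain shared by several amino acid transporters, rose by 1.61 and 1.08. None of the glycolytic enzymes of the list was called, with Gapdh the furthest from the median of all genes at 1.06 (adjusted p = 0.0636).

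Of 23 cell cycle genes 3 were called higher and 1 lower (median 0.09), where 1.68% and 1.06% of all genes were. These calls depended on single libraries. The lists below with 1 call are to be read beside the same shares. Cdkn1a, the kinase inhibitor p21, had 4.57 and 5.54 RPKM at 30 min, against 0.135 and 0.0999 RPKM at 0 min (2.55, adjusted p = 0.0109, 4 of 8 fits). Cdkn1b rose by 1.01 (adjusted p = 0.0498) and Pcna by 1.21 (adjusted p = 0.0246), each called in 0 of 8 fits. Ccnd2, encoding cyclin D2, fell to 38.2 and 38.0 RPKM at 30 min, against 78.8 and 85.3 RPKM at 0 min (-0.97, adjusted p = 0.0165, 2 of 8 fits). Of 24 chromatin remodelling and acetylation genes 1 rose, Brd2, a bromodomain reader of acetylated histones, with 171 and 161 RPKM, against 74.0 and 76.1 RPKM (1.25, adjusted p = 0.0109, 5 of 8 fits). Of 26 ribosome biogenesis genes 1 rose, Nop56, by 0.88 (adjusted p = 0.0409, 0 of 8 fits). No gene of 3 further lists was called by limma: 0 of 13 NuRD genes (median 0.03), 0 of 5 Ikaros family genes (-0.22) and 0 of 20 genes of the BCL2 family and death receptors (0.04). At an unadjusted p below 0.05 these lists had 2, 3 and 8 members, and limma-voom called 0, 0 and 3, in the same order. Of all tested genes 22.5% had such a p, and limma-voom called 428 of 12140 higher and 686 lower. The counts of the reference genes below are to be read beside the same shares. Chd3, the most abundant NuRD gene, had 129 and 124 RPKM at 30 min, against 123 and 124 RPKM at 0 min. In the Notch list 1 of 17 rose, the target gene Hes1, with 2.54 and 2.30 RPKM at 30 min, against 0.331 and 0.109 RPKM at 0 min (1.61, adjusted p = 0.0230, 2 of 8 fits). The reference genes used in many assays were not called (0 of 12 by limma, 5 at an unadjusted p below 0.05 and 3 called by limma-voom; median 0.25), though Ppia was at 12.5 and 13.9 RPKM at 30 min, against 6.46 and 2.34 RPKM at 0 min (adjusted p = 0.0654).

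Genes of the naive state and of TCR signalling gave 3 calls, shares to be read beside the 2.74% of all genes that were called. In the naive, homing and quiescence list 1 of 25 rose and 1 fell (median 0.01). Ccr7, the chemokine receptor for entry into lymph nodes, had 786 and 663 RPKM at 30 min, against 265 and 245 RPKM at 0 min (1.61, SE 0.17, adjusted p = 0.0137, 5 of 8 fits). Slfn1, a Schlafen family gene linked to quiescence, fell to 29.9 and 43.7 RPKM at 30 min, against 84.8 and 92.8 RPKM at 0 min (-1.16, adjusted p = 0.0301, 1 of 8 fits). Of 30 TCR and proximal signalling genes 0 rose and 1 fell (median -0.04): Sla2, an adaptor that limits TCR signalling, with 18.2 and 26.0 RPKM, against 42.6 and 44.4 RPKM (-0.85, adjusted p = 0.0385, 1 of 8 fits). Cd3e had 144 and 166 RPKM at 30 min, against 254 and 260 RPKM at 0 min, and was not called (-0.62, adjusted p = 0.0776).

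Falls were smaller and less secure than rises. The single falls in the 2 lists below are to be read beside the 1.06% of all genes that were called lower. An unadjusted limma p below 0.05 was found for 6 of 16 effector and 16 of 29 interferon-stimulated genes. Of all genes 22.5% had such a p. Limma-voom called 5 and 9 members, in the same order, and over 12140 genes it called 428 higher and 686 lower. Above the median of all genes lay 2 of the 16 and 8 of the 29. Effector genes showed 0 rises and 1 fall among 16 (median -0.24; 0 lower when 1 library was left out): Cxcr3, with 18.7 and 25.6 RPKM at 30 min, against 46.4 and 53.7 RPKM at 0 min (-1.04, adjusted p = 0.0374, 0 of 8 fits). Interferon-stimulated genes showed 0 rises and 1 fall among 29 (median -0.25; 0 lower when 1 library was left out): Ifit1, with 2.39 and 2.15 RPKM, against 5.99 and 7.11 RPKM (-1.09, adjusted p = 0.0393, 0 of 8 fits). Outside the lists, Art2b, which modifies T cell surface proteins with ADP-ribose, had 11 and 17.9 RPKM at 30 min, against 37.3 and 51.6 RPKM at 0 min (-1.46, adjusted p = 0.0379, 0 of 8 fits). Its relative Art4 had 1.05 and 0.689 RPKM, against 3.72 and 4.76 RPKM (-1.37, adjusted p = 0.0217, 2 of 8 fits). Bcdin3d, an RNA methyltransferase gene, had 1.54 and 1.77 RPKM at 30 min, against 5.78 and 11 RPKM at 0 min (-1.65, adjusted p = 0.0379, 0 of 8 fits). Izumo4, Ccdc71, Tor4a and the pseudogene Mrps36-ps1 complete the named falls, with changes of -1.57, -1.29, -1.29 and -1.44.

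Joining segments of the TCR genes gave some of the steepest falls but on very short gene models. Trbj1-6 of the beta chain (chromosome 6, 41535554 to 41535606) had 64.5 and 29.4 RPKM at 30 min, against 170 and 168 RPKM at 0 min (-1.81, adjusted p = 0.0379, 1 of 8 fits). Trbj1-3 had 48.8 and 28.9 RPKM, against 131 and 94.6 RPKM (-1.42, adjusted p = 0.0405, 0 of 8 fits). Traj43 of the alpha chain (chromosome 14, 54174742 to 54174798) was at 1.71 RPKM and a listed 0 at 30 min, against 11.8 and 15.6 RPKM at 0 min (adjusted p = 0.0332, 2 of 8 fits). On a model of 57 bases its 1.71 RPKM is the value of 1 read, so its fitted change depends on the pseudocount and is not given.

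The 2 Ikaros-Zn4-/- 30 min libraries differed most, among the called genes, in Traj43, Tnfsf11 (21.3 and 8.53 RPKM), Irs2 (101 and 43.9 RPKM) and Nr4a3 (32.7 and 14.1 RPKM). In the 3 of these that rose the library with the lower value is the second, the shallower of the pair, as it is for Maff, Fosl2 and Dusp4, while Tnf, Sertad1 and Gadd45b were higher in the second. The second library also held more mitochondrial mRNA, with 6508 RPKM over 6 genes against 3927 RPKM in the first. Its part in these differences was not tested.

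Set beside the WT response, no gene's response differed past the test, which does not show that the responses are alike. The difference of the 30 min responses (Ikaros-Zn4-/- minus WT) gave 0 called genes with limma, 656 at an unadjusted p below 0.05 (5.38%) and a lowest adjusted p of 0.876. The count-based limma-voom, run on recovered reads, also called 0, with 813 at an unadjusted p below 0.05. Without the second WT 0 min library 1 gene was called, Mir6946. WT cells gave more calls with the same tests, 736 genes (6.03%), 392 higher (3.21%) and 344 lower (2.82%), which is no test of a difference. The 205 genes called higher in Ikaros-Zn4-/- cells had a median change of 1.60 there and 1.57 in WT cells, all 205 were above the median of all genes in WT cells too, and 108 of them changed more in Ikaros-Zn4-/- cells. The 392 genes called higher in WT cells had a median of 0.96 in Ikaros-Zn4-/- cells and 1.34 in WT cells, and 74 changed more in Ikaros-Zn4-/- cells. Each choice favours the genotype in which the genes were called. The 129 genes called lower had medians of -0.88 in Ikaros-Zn4-/- cells and -0.69 in WT cells, and the 344 called lower in WT cells had -0.48 in Ikaros-Zn4-/- cells and -0.71 in WT cells.

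**Figure D4:**
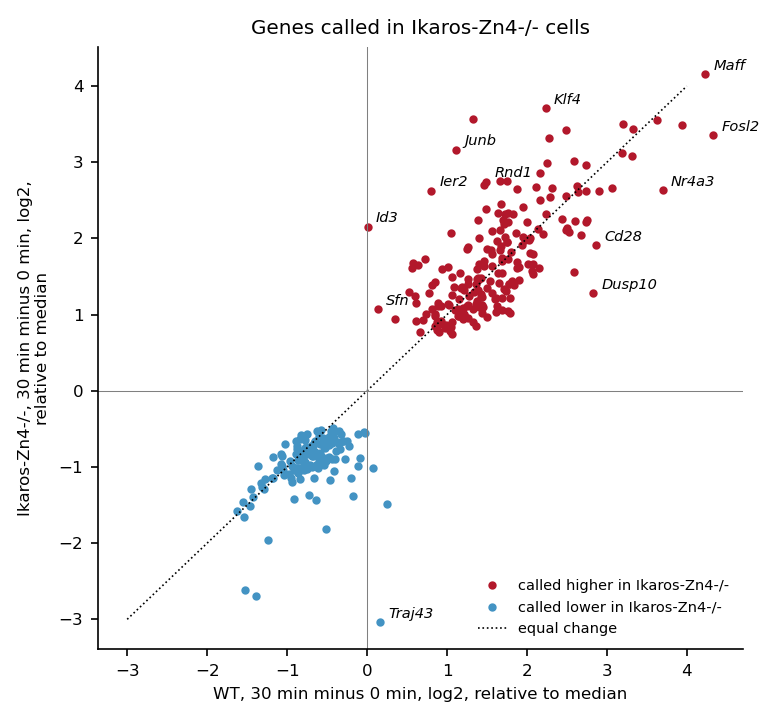
Log2 change at 30 min against 0 min, relative to the median of all genes, in Ikaros-Zn4-/- cells (vertical axis) and WT cells (horizontal axis) for the 334 genes called in Ikaros-Zn4-/- cells; red marks genes called higher, blue genes called lower, and the dotted line equal change. The genes were chosen by the vertical axis, and 108 of the 205 red points lie above the line; Id3, at 2.16 in Ikaros-Zn4-/- cells and 0.01 in WT cells, is far above it and Dusp10, at 1.28 and 2.83, far below.

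Among called genes, the lowest unadjusted p of the response difference belonged to Dusp10, Sfn, Id3 and Rnd1, each with an adjusted p of 0.876. Dusp10 encodes a phosphatase of the MAP kinases p38 and JNK (chromosome 1, 184013302 to 184075636). In Ikaros-Zn4-/- cells it had 125 and 91.2 RPKM at 30 min, against 45.4 and 48.8 RPKM at 0 min. In WT cells the values were 188 and 177 RPKM at 30 min, against 27.1 and 28.2 RPKM at 0 min. Its response was smaller by 1.51 in Ikaros-Zn4-/- cells (log2 difference -1.51, SE 0.23, unadjusted p = 0.000330). Id3, with the Ikaros-Zn4-/- values given above, had 41.7 and 26.9 RPKM in WT cells at 30 min, against 43.4 and 31.6 RPKM at 0 min (difference 2.18, SE 0.45, unadjusted p = 0.00184). At 30 min both Ikaros-Zn4-/- libraries lay above both WT libraries, and at 0 min below them, where the difference was not called (adjusted p = 0.0648). Sfn, encoding the protein 14-3-3 sigma, had 22.3 and 27.2 RPKM in Ikaros-Zn4-/- cells at 30 min, against 12.4 and 12.1 RPKM at 0 min, while the WT values were 20.9 and 21 RPKM at 30 min, against 21.8 and 20.5 RPKM at 0 min (difference 0.97, unadjusted p = 0.00108). Its 0 min level was lower in Ikaros-Zn4-/- than in WT cells (log2 difference -0.74, adjusted p = 0.0344). Rnd1, which encodes a small GTPase-like protein, had 11.6 and 12.3 RPKM in Ikaros-Zn4-/- cells at 30 min, against 0.859 and 1.35 RPKM at 0 min, while the WT values were 2.09 and 1.62 RPKM at 30 min, against 0.220 and 0.0379 RPKM at 0 min (difference 1.29, unadjusted p = 0.00208). The sign of that difference depends on the scale: with limma-voom on recovered reads it was -0.45, and the ratio of mean RPKM at 30 min to that at 0 min was 10.8 in Ikaros-Zn4-/- and 14.4 in WT cells. At 30 min it was higher in Ikaros-Zn4-/- than in WT cells by 2.18 (adjusted p = 0.00216). Ikaros-Zn4-/- against WT cells gave 302 calls at 0 min (2.47%, with 1.92% higher and 0.557% lower) and 319 at 30 min (2.61%, with 2.01% higher and 0.606% lower).

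Before stimulation no gene of the immediate early lists was called different between Ikaros-Zn4-/- and WT cells by limma. Unadjusted, 9 of the 20 other immediate early genes, 5 of 12 AP-1 and small Maf subunits and 3 of 8 EGR and NR4A factors had a limma p below 0.05. Of all tested genes 13.9% had such a p for Ikaros-Zn4-/- against WT cells at 0 min. For the 3 lists limma-voom called 1, 3 and 0, in the same order. The share of all genes that limma-voom called in this comparison is not given, so these counts cannot be judged against it. At 0 min 17 of the 20 other immediate early genes, 11 of 12 AP-1 and small Maf subunits and 6 of 8 EGR and NR4A factors had a lower mean RPKM in Ikaros-Zn4-/- cells, and at 30 min 8, 9 and 6 did. Of all tested genes 46.7% had a lower mean RPKM in Ikaros-Zn4-/- cells at 0 min and 45.9% at 30 min. Junb had 107 and 268 RPKM in Ikaros-Zn4-/- cells at 0 min, against 753 and 403 RPKM in WT cells (log2 difference -1.70, adjusted p = 0.154), and at 30 min 1559 and 1272 RPKM, against 1286 and 897 RPKM. Ier2, an immediate early nuclear protein, had 39.96 and 97.5 RPKM in Ikaros-Zn4-/- cells at 0 min, against 266 and 155 RPKM in WT cells (adjusted p = 0.120), and at 30 min 338 and 387 RPKM, against 359 and 284 RPKM. The 2 WT 0 min libraries themselves differed in these genes, with Fos at 1259 and 498 RPKM and Jun at 492 and 190 RPKM. Unadjusted, 6 of the 20 other immediate early genes, 3 of the 12 AP-1 and small Maf subunits and 0 of the 8 EGR and NR4A factors had a p below 0.05 for the response difference, where 5.38% of all genes did, and none was called.

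**Figure D5:**
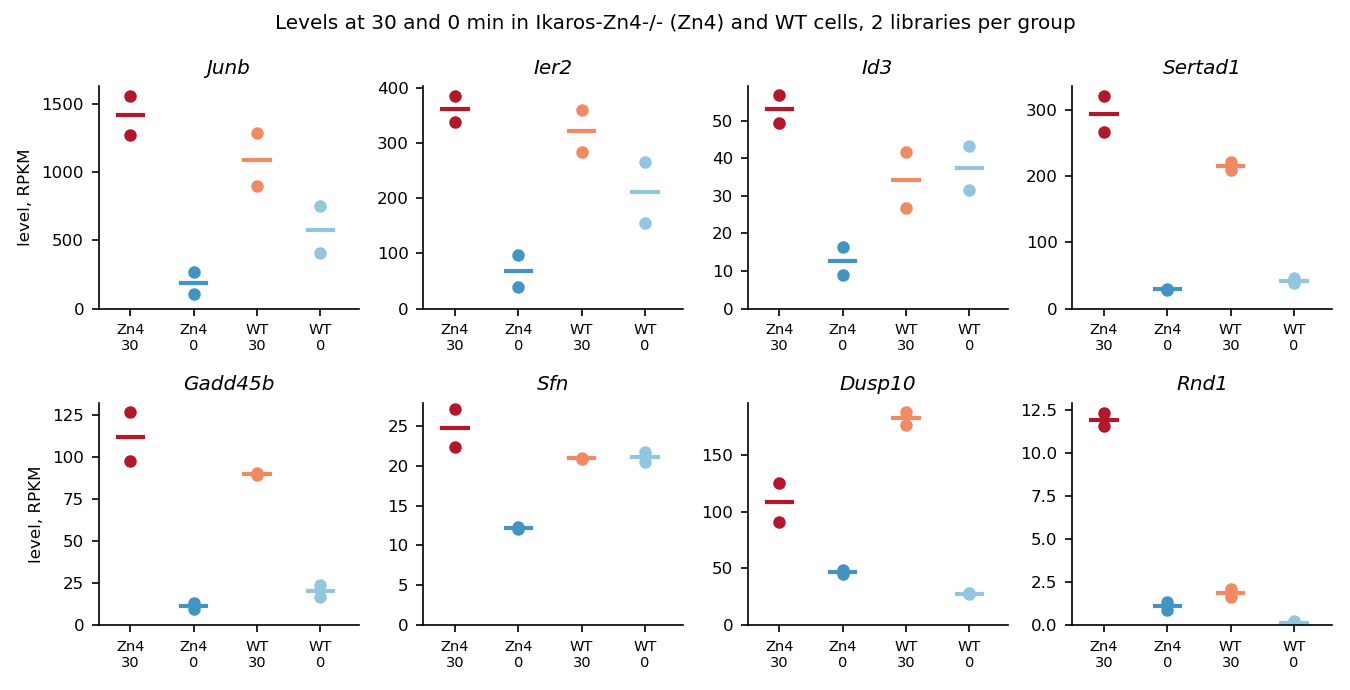
RPKM of 8 genes called higher in Ikaros-Zn4-/- cells, in Ikaros-Zn4-/- (Zn4) and WT cells at 30 and 0 min; each point is 1 library and each bar the mean of 2, on linear axes that start at 0. Junb, Ier2 and Id3 have their lowest points in Ikaros-Zn4-/- cells at 0 min, Dusp10 its highest in WT cells at 30 min (188 and 177 RPKM), and Rnd1 its highest in Ikaros-Zn4-/- cells at 30 min (11.6 and 12.3 RPKM).

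The single Ikaros-Zn4-/- library at 120 min shows where the 30 min levels stood in the course of the response, with no test. For Nr4a3 it was 167 RPKM, after 2.44 and 3.49 RPKM at 0 min and 32.7 and 14.1 RPKM at 30 min. Fosl2, Tnfsf11, Slc38a2 and Cdkn1a were likewise highest at 120 min, at 159, 72.5, 802 and 22.7 RPKM. Other genes were highest at 30 min. Junb was at 360 RPKM after the 0 and 30 min values given above, and Maff, Klf4 and Id3 were at 17.3, 47.4 and 15.6 RPKM. Cd8a, which was not called at 30 min, was at 52.2 RPKM.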

How the data were processed

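The authors deposited 1 table of RPKM values, with 1 column per library. The submitters' processing notes list HTSeq 0.6.1, TopHat2 2.0.12 and TopHat, and the builds GRCm38 and mm10. How genes were annotated, measured in length and counted is not given in the sources used here. Per the labels' protocols, single-end libraries were made with the TruSeq RNA kit v2, which does not mark strand, so overlapping genes on opposite strands, pseudogenes, paralogs and TCR segments are uncertain.

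Of 12637 genes, the 12203 that averaged 0.5 RPKM or more over 10 libraries were tested with limma 3.58.1 (R 4.3.3) on log2(RPKM + 1). One mean per group (6 groups) was fitted, with 4 residual degrees of freedom, an intensity trend and Benjamini-Hochberg adjustment over all genes; tests were two-sided, and the procedure was tested on simulated data. The 120 min groups hold 1 library each and were assumed to vary like the others. The contrasts were 30 minus 0 min in each genotype, their difference, and Ikaros-Zn4-/- minus WT at each time. The 8 fits without 1 library, another scaling, pseudocount, filter, spread and count-based test were tried as alternatives.

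Depth was recovered from the deposited values with GENCODE M21 exon lengths, which matched 12567 identifiers (70 did not match): 65.2% to 71.1% of values below 200 reads lay within 0.01 read of a whole number (2% by chance), and the recovered reads summed to 94.0% to 101% of the depth. Recovered reads were rounded to whole numbers, so those from values off a whole number are approximate. The limma-voom results rest on these reads. The 7 symbols that occur more than 1 time were kept as separate identifiers.

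The genes and lists were chosen with earlier results of these data known. The 77 genes named by rule were, among called genes with assigned symbols, the 14 largest rises and 10 largest falls, up to 4 called members per list (or its most abundant member), the 4 lowest p of the response difference, the 4 that differed most between the 30 min libraries, and 6 label checks; other genes were added after their values were seen. Of the genes named by rule, some are not reported here. Replicate numbers are not said to pair libraries. Figures used matplotlib 3.10.9, pandas 2.3.3 and numpy 2.4.6 under Python 3.11.15.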

Additional observations from a re-analysis of the deposited data

How the results depend on the processing

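The count of rises (205) and falls (129) in Ikaros-Zn4-/- cells moved by over 1.5 times under several settings. Leaving out 1 library gave 31 to 140 higher and 2 to 25 lower, and 0 to 1 genes for the response difference. The spread of the compared groups only gave 0 higher and 0 lower, and limma-voom on recovered reads 428 higher and 686 lower. Without a filter there were 79 lower, with median ratio scaling 80 lower, and 275 lower once genes under 300 bases were left out. A replicate block gave 374 higher and 587 lower and 0 for the response difference, but the labels do not pair the libraries, and the replicate differences of the 2 groups correlated at 0.160 across genes. The cause of these shifts was not tested. Pseudocounts of 0.5 and 2, quantile normalization, a filter at 2 RPKM and a fit without the trend kept both counts within 1.5 times. Signs turned in 4 genes that were not called: Stim1 (-0.069 with quantile normalization, and -0.055 to 0.11 over the fits without 1 library), Chd3 (-0.025, quantile), Bax (-0.12, quantile; -0.18 to 0.29 without 1 library) and B2m (-0.084, quantile; -0.00676 to 0.50 without 1 library). The response difference of Rnd1 turned to -0.45 with limma-voom. In the shallowest library, at 4.50 M reads, 1 read on 1 kb is 0.222 RPKM, which limits genes below about 1 RPKM.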

Other observations

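The following gene families were chosen by symbol after their values were seen, and some of their members are also in the lists above, so the counts are descriptions. They are to be read beside the 1.68% of all genes called higher and the 1.06% called lower. Of 11 Klf genes, zinc finger factors, 5 rose and 0 fell at 30 min in Ikaros-Zn4-/- cells, with a median change of 1.40 and 0 of 11 below the median of all genes. Besides Klf4 and Klf10 these were Klf9, with 18.3 and 11 RPKM at 30 min, against 1.84 and 1.57 RPKM at 0 min (2.61, limma adjusted p = 0.00677), Klf16 and Klf11. Of 4 Mex3 genes, which encode RNA-binding proteins, 3 rose, led by Mex3b with 26 and 25 RPKM, against 4.14 and 6.66 RPKM (2.19, adjusted p = 0.00837). Of 11 Srsf splicing factor genes 2 rose, Srsf2 with 138 and 132 RPKM, against 56.6 and 64.3 RPKM (1.26, adjusted p = 0.0137), and Srsf3.

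Other families lay mostly below the median of all genes. Of 9 Gimap genes, GTPases of lymphocytes, 2 fell and 8 lay below it (median -0.69), with Gimap3 at 144 and 171 RPKM at 30 min, against 269 and 286 RPKM at 0 min (adjusted p = 0.0339). Of 7 Slfn genes 2 fell, Slfn1 and Slfn8, and all 7 lay below it (median -0.65). Of 251 genes with a Zfp symbol 5 rose and 7 fell, where 1.68% of all genes rose and 1.06% fell. Among the 251, 171 lay below the median of all genes (median -0.21, and -0.20 in WT cells). Of 74 TCR joining segments 3 fell and 0 rose (median -0.44), while 0 of 74 TCR variable segments were called by limma (median -0.03). The ribosomal protein genes had a median of 0.32, yet the 2 of 76 that were called, Rps13 and Rps27a, fell: Rps13 had 7.22 and 6.85 RPKM at 30 min, against 13.4 and 13.4 RPKM at 0 min (adjusted p = 0.0379).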
